A study of Mus musculus with 12 samples.

Results

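The expression of 8 enteroendocrine genes was followed in sorted cells of the small-intestinal crypt. They were the granin genes Chga, Chgb and Scg2, the calcium sensor gene Scgn (secretagogin), and the transcription factor genes Neurog3, Neurod1, Isl1 and Pax6. They were taken by gene symbol from a table of read counts, without use of their values, and made up 8 of its 55414 genes. The table holds 12 bulk RNA-seq libraries of untreated adult C57BL/6J mice in 4 groups of 3, namely Paneth cells (PC) and non-Paneth cells (nonPC) of wild-type (WT) mice and PC and nonPC of GRKO mice. GRKO mice (GRvillinKO) lack the glucocorticoid receptor, which the gene Nr3c1 encodes, in cells that express villin, so the deletion reaches the whole crypt epithelium and not Paneth cells alone. PC were sorted as CD31- CD45- TER119- cells that were CD24+ and cKIT+ with side scatter from medium to high, whereas how nonPC were gated was not stated in the sources used.

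Enteroendocrine cells are rare, hormone-secreting cells of the gut epithelium. They arise from crypt progenitors that switch on Neurog3 for a short time, and Neurod1, Isl1 and Pax6 act after it while the hormone-producing subtypes form. The granins are acidic proteins that the mature cells pack into dense-core secretory granules together with the hormones. In bulk samples of this kind, fewer cells of a type and less RNA per cell cannot be told apart.

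The libraries held between 11126297 and 15910292 counts. Levels are in CPM (a count divided by the library's total, times 1000000), and the SD is over the 3 libraries of a group. Lyz1 and the alpha defensin genes took 37.4 to 46.9% of the counts in PC libraries and at most 0.139% in nonPC libraries, and all 8 Paneth markers examined were higher in PC in both genotypes. Fold changes were therefore computed on counts scaled with TMM, which allows for such differences in composition. Nr3c1 was at 33.0 to 41.1 CPM in WT PC and 4.73 to 12.1 CPM in GRKO PC, and at 135 to 160 CPM in WT nonPC and 19.6 to 36.2 CPM in GRKO nonPC. Its log2 fold change was -2.31 ± 0.32 (SE, edgeR adjusted p = 0.0331) in PC and -2.67 ± 0.30 (adjusted p = 6.66e-05) in nonPC. Both libraries of WT replicate 2 carried Xist, at 127 and 257 CPM, against at most 7 counts in the GRKO libraries, so Xist was not matched between the genotypes. The labels do not say that the libraries of a group came from separate mice, and p-values measure the spread between these libraries only.

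The sequences just upstream of the transcription start are shown for the 3 granin genes, whose levels moved together between the fractions, and for Neurog3, which moved with the genotype in nonPC. They are the 250 bases before the RefSeq start on the GRCm38.p6 build, read in the direction of the gene. The windows are chr12:102554691-102554940 (plus strand) for Chga, chr2:132781392-132781641 (plus strand) for Chgb, chr1:79440027-79440276 (minus strand) for Scg2 and chr10:62132840-62133089 (plus strand) for Neurog3. Capitals mark 2 motifs searched on both strands, the cAMP response element-like TGACGTNA, a binding site of CREB-family factors, and the E-box CANNTG, bound by basic helix-loop-helix factors, the class to which Neurog3 and Neurod1 belong.
Chga: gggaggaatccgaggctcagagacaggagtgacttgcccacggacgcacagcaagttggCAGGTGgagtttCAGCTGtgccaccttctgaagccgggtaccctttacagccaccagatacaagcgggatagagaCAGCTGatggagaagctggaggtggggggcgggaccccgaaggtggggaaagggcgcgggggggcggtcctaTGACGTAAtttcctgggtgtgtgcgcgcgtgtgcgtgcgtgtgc
Chgb: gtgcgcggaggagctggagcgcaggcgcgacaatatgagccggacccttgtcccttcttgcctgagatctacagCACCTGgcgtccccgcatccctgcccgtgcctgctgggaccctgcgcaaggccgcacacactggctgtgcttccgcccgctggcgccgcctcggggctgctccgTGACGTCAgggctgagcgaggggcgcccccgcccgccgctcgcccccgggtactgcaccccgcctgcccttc
Scg2: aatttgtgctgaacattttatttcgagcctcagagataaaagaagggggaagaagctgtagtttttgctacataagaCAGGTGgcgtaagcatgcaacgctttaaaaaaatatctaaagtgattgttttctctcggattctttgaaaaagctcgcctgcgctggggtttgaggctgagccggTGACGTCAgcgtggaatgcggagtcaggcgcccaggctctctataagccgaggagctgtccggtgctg
Neurog3: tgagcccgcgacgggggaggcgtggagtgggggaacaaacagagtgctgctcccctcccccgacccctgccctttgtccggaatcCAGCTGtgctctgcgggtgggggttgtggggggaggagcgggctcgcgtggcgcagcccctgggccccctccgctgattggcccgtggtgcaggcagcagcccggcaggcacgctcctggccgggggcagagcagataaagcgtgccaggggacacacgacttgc
The CRE-like letters began 44 bases before the start in Chga, as TGACGTAA, 72 bases before it in Chgb and 68 bases before it in Scg2, both as TGACGTCA. Pax6 held TGACGTCA 76 bases before the start of 1 of its 2 RefSeq windows. In all, 4 of the 8 genes held the CRE-like motif, against 2.52% of all 32851 windows of 27025 genes, and no match overlapped an E-box. At least 1 E-box was found in 7 of the 8 genes, all except Scgn, and in 66.2% of all windows. Chga held 3 E-boxes, and Neurog3 had 1, 165 bases before its start. Neither TATAAA, present in 12.4% of all windows, nor the glucocorticoid response element (the palindromic consensus), present in 0.00913%, was found in the windows of the 8 genes. These matches describe the letters and are no evidence of binding.

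**Figure D1:**
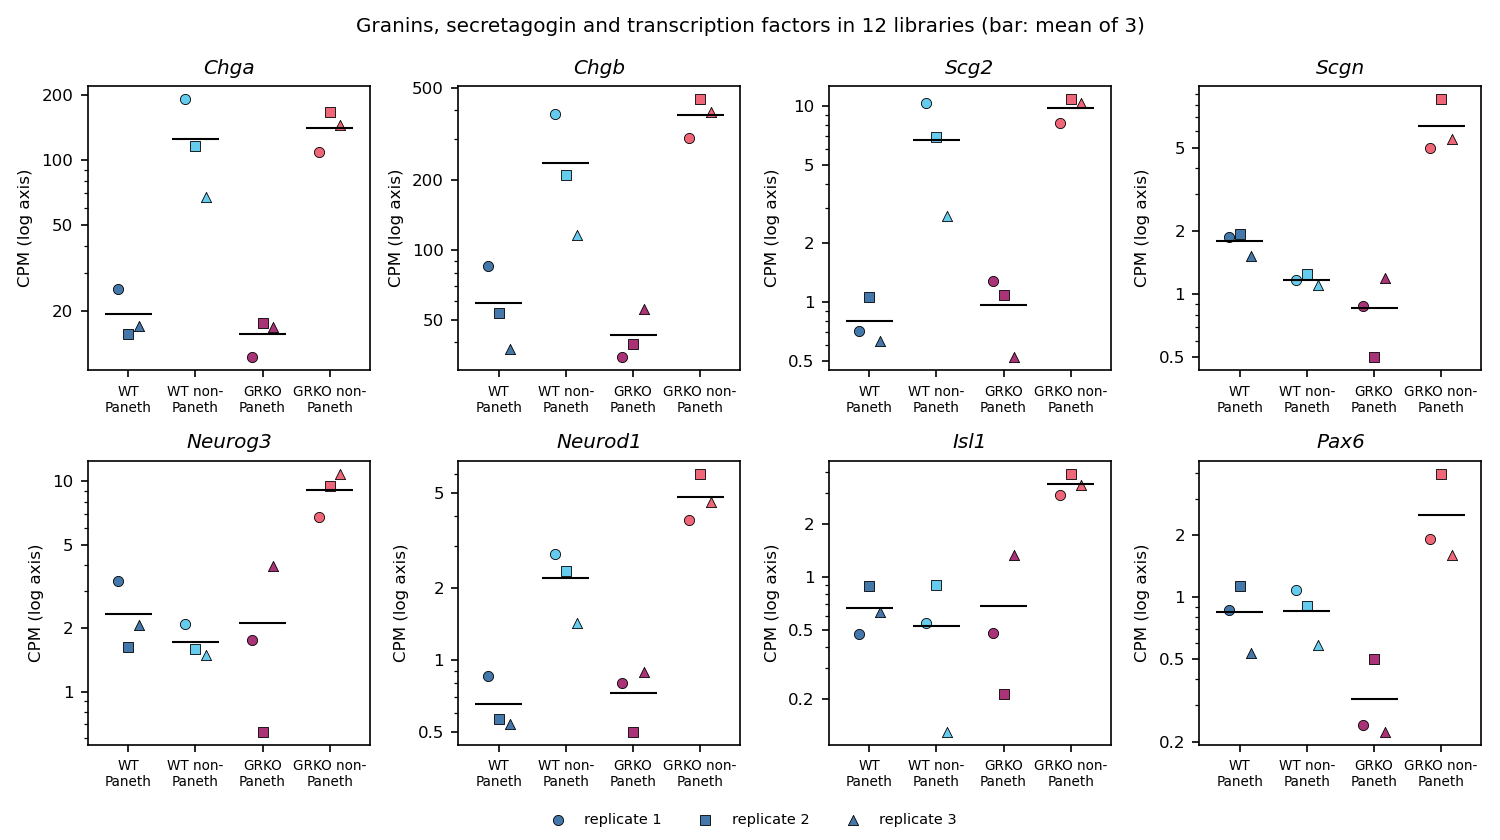
CPM (log axis) of the 8 genes in the 12 libraries, with 1 panel per gene, 1 point per library, the marker shape for the replicate number and a bar for the mean of 3. The granin genes sit lower in both PC groups than in both nonPC groups, whereas Scgn, Neurog3, Isl1 and Pax6 are highest in the 3 GRKO nonPC libraries. On TMM-scaled CPM the latter does not hold for 2 of these genes. Neurog3 of GRKO PC replicate 3 (5.01) lies above GRKO nonPC replicate 1 (4.66). Pax6 of WT PC replicate 2 (1.73) lies above GRKO nonPC replicates 1 (1.30) and 3 (1.08).

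Chga (ENSMUSG00000021194; GRCm39 chromosome 12, 102520484 to 102531300, plus strand) encodes chromogranin A, the most widely used marker of enteroendocrine cells. It was found at 25.3, 15.7 and 17.1 CPM in WT PC and at 192, 116 and 67.7 CPM in WT nonPC. In GRKO mice it was at 12.2, 17.6 and 16.9 CPM in PC and 109, 167 and 146 CPM in nonPC. The 2 fractions did not overlap in either genotype, while the genotypes overlapped in both fractions. On TMM-scaled CPM, however, Chga of GRKO PC (18.5 to 21.7) lay below that of WT PC (22.5 to 30.7). Chga was 4.01-fold lower in WT PC than in WT nonPC (log2 -2.0 ± 0.32 SE, adjusted p = 0.000343) and 4.61-fold lower in GRKO PC than in GRKO nonPC (adjusted p = 0.000307).

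Chgb (ENSMUSG00000027350; GRCm39 chromosome 2, 132622464 to 132637904, plus strand) encodes chromogranin B, the companion granin of the same granules. Its CPM were 85.4, 53.6 and 37.6 in WT PC, and 387, 212 and 116 in WT nonPC. In GRKO mice they were 34.5, 39.2 and 55.6 in PC and 304, 449 and 395 in nonPC. In WT nonPC the libraries fell in the same order for Chgb as for Chga, with replicate 1 highest and replicate 3 lowest. Chgb was 2.51-fold lower in WT PC than in WT nonPC (log2 -1.33 ± 0.42 SE, adjusted p = 0.0243). On TMM-scaled CPM these groups overlapped, and the call was lost without WT PC replicate 2 (adjusted p = 0.0573), without WT PC replicate 3 (0.072), without WT nonPC replicate 1 (log2 -0.71, 0.12) and without WT nonPC replicate 2 (0.061). With the replicate number as a block in edgeR, the WT call was kept (log2 -1.23, adjusted p = 4.21e-06). In GRKO mice Chgb was 4.53-fold lower in PC (adjusted p = 0.00303). On the other strand, 8.24% of its exonic bases overlap the gene model Gm74864.

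Scg2 (ENSMUSG00000050711; GRCm39 chromosome 1, 79412386 to 79417837, minus strand) encodes secretogranin II, the precursor of the neuropeptide secretoneurin. It was the scarcest of the 3 granins, also per length, with 9, 13 and 7 counts in WT PC and 133, 99 and 42 counts in WT nonPC, or 0.705, 1.05 and 0.629 CPM against 10.3, 6.89 and 2.73 CPM. The GRKO libraries had 16, 15 and 7 counts in PC and 120, 172 and 161 in nonPC, or 1.28, 1.07 and 0.521 CPM against 8.16, 10.8 and 10.3 CPM. The fractions again did not overlap. Scg2 was 5.02-fold lower in WT PC (log2 -2.33 ± 0.48 SE, adjusted p = 0.000965) and 5.13-fold lower in GRKO PC (adjusted p = 0.000921) than in the nonPC fraction of the same genotype.

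Scgn (ENSMUSG00000021337; GRCm39 chromosome 13, 24137420 to 24175197, minus strand) encodes secretagogin, an EF-hand protein that senses calcium in neuroendocrine cells. It had 24, 24 and 17 counts in WT PC and 15, 18 and 17 counts in WT nonPC, which are 1.88, 1.95 and 1.53 CPM against 1.16, 1.25 and 1.11 CPM. In GRKO mice the counts were 11, 7 and 16 in PC and 73, 136 and 86 in nonPC, or 0.879, 0.501 and 1.19 CPM against 4.96, 8.55 and 5.48 CPM. Thus, unlike for the granins, the PC libraries were the higher ones in WT and the lower ones in GRKO. Scgn was 2.48-fold higher in WT PC than in WT nonPC (log2 1.31 ± 0.36 SE, adjusted p = 0.00718), and this call was lost when counts were scaled by library totals only (log2 0.60, adjusted p = 0.146). In GRKO mice it was 3.73-fold lower in PC (log2 -1.90 ± 0.35 SE, adjusted p = 0.000576).

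Neurog3 (ENSMUSG00000044312; GRCm39 chromosome 10, 61968862 to 61970766, plus strand) encodes neurogenin 3, the factor that commits progenitors to the enteroendocrine lineage. It had 43, 20 and 23 counts in WT PC and 27, 23 and 23 in WT nonPC, or 3.37, 1.62 and 2.07 CPM against 2.09, 1.60 and 1.5 CPM. In GRKO mice it had 22, 9 and 53 counts in PC and 100, 151 and 171 in nonPC, or 1.76, 0.644 and 3.94 CPM against 6.80, 9.49 and 10.9 CPM. The GRKO PC libraries spread most, with replicate 3 far above replicate 2. The log2 difference between PC and nonPC was 1.13 ± 0.47 (SE, adjusted p = 0.0578) in WT and -1.12 ± 0.43 (adjusted p = 0.0507) in GRKO, and neither passed the threshold. With the replicate number as a block, the WT difference passed it (log2 1.10, adjusted p = 0.026), as it did with DESeq2 (0.0497), no filter on low counts (0.00708), a filter of 10 counts in every library of a group (0.0405) and only the groups compared (0.023). Without GRKO PC replicate 3, the GRKO difference passed it (log2 -1.89, adjusted p = 0.00394). On GRCm39, 41.8% of the exonic bases of Neurog3 overlap Fam241b on the other strand, and the strand that was counted is not stated. Fam241b was at 18.1 to 24.2 CPM in WT nonPC and 20.5 to 24.3 CPM in GRKO nonPC, with the genotypes overlapping.

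Neurod1 (ENSMUSG00000034701; GRCm39 chromosome 2, 79282865 to 79287294, minus strand) encodes a basic helix-loop-helix factor that acts directly after Neurog3. It had 11, 7 and 6 counts in WT PC and 36, 34 and 22 in WT nonPC, or 0.862, 0.568 and 0.539 CPM against 2.79, 2.36 and 1.43 CPM. GRKO libraries showed 10, 7 and 12 counts in PC and 57, 96 and 72 in nonPC, or 0.799, 0.501 and 0.893 CPM against 3.87, 6.03 and 4.59 CPM. Among the 4 factors it was the one that followed the granins, with PC below nonPC and no overlap in either genotype. Neurod1 was 2.04-fold lower in WT PC (log2 -1.03 ± 0.40 SE, adjusted p = 0.0418) and 3.34-fold lower in GRKO PC (adjusted p = 0.00172). The WT call was lost without WT PC replicate 2 (adjusted p = 0.0855) or 3 (0.118), and without WT nonPC replicate 1 (0.181) or 2 (0.143). Small stretches of the gene overlap Cerkl on the same strand (6.71% of exonic bases) and Gm54165 on the other (6.97%), and Cerkl had at most 9 counts in a library.

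Isl1 (ENSMUSG00000042258; GRCm39 chromosome 13, 116434817 to 116446235, minus strand) encodes a LIM-homeodomain factor needed by several hormone-producing cells. It had 6, 11 and 7 counts in WT PC and 7, 13 and 2 in WT nonPC, or 0.470, 0.892 and 0.629 CPM against 0.543, 0.904 and 0.130 CPM. In GRKO mice it had 6, 3 and 18 counts in PC and 43, 62 and 53 in nonPC, or 0.480, 0.215 and 1.34 CPM against 2.92, 3.90 and 3.38 CPM. The other 3 groups lay at a like low level, and the GRKO nonPC libraries were all above them. The log2 difference between PC and nonPC was 1.05 ± 0.67 (SE, adjusted p = 0.208) in WT and -1.35 ± 0.57 (adjusted p = 0.0715) in GRKO. Without GRKO PC replicate 3, the GRKO difference passed the threshold (log2 -2.27, adjusted p = 0.0162).

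Pax6 (ENSMUSG00000027168; GRCm39 chromosome 2, 105499234 to 105530952, plus strand) encodes a paired-box factor that binds hormone gene promoters. It had 11, 14 and 6 counts in WT PC and 14, 13 and 9 in WT nonPC, or 0.862, 1.14 and 0.539 CPM against 1.09, 0.904 and 0.586 CPM. Its counts in GRKO were 3, 7 and 3 in PC and 28, 63 and 25 in nonPC, or 0.240, 0.501 and 0.223 CPM against 1.90, 3.96 and 1.59 CPM. GRKO nonPC replicate 2 held more than its group's other libraries together. The WT fractions overlapped (log2 0.71 ± 0.51 SE, adjusted p = 0.261), whereas in GRKO Pax6 was 3.87-fold lower in PC (log2 -1.95 ± 0.53 SE, adjusted p = 0.0084), a call lost without GRKO nonPC replicate 2 (adjusted p = 0.0726). Elp4 overlaps 21.1% of the exonic bases of Pax6 on the other strand, and was at 11.2 to 14.6 CPM in WT nonPC and 20.2 to 24.01 CPM in GRKO nonPC.

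Across the 8 genes, 4 were lower in WT PC than in WT nonPC (Chga, Chgb, Scg2 and Neurod1), 1 was higher (Scgn) and 3 did not pass the threshold. Of all 13057 genes tested, 50.7% passed in this comparison, 26.7% as lower and 24% as higher. The median log2 fold change was -0.16 over the 8 genes and 0.01 over all genes. In GRKO mice 6 of the 8 genes were lower in PC and none was higher, against 39.2% of all genes called in either direction and 21.2% called lower. The median was -1.93 over the 8 genes and -0.08 over all genes. Scaling by library totals only moved the median of all genes to -0.68 in WT and -1.05 in GRKO. On that scale all 8 genes were lower in GRKO PC, with adjusted p = 0.000372 for Neurog3 and 0.00108 for Isl1. However, 10785 of all 13057 genes were called on that scale in GRKO, in either direction, so the 8 calls are not particular to these genes.

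**Figure D2:**
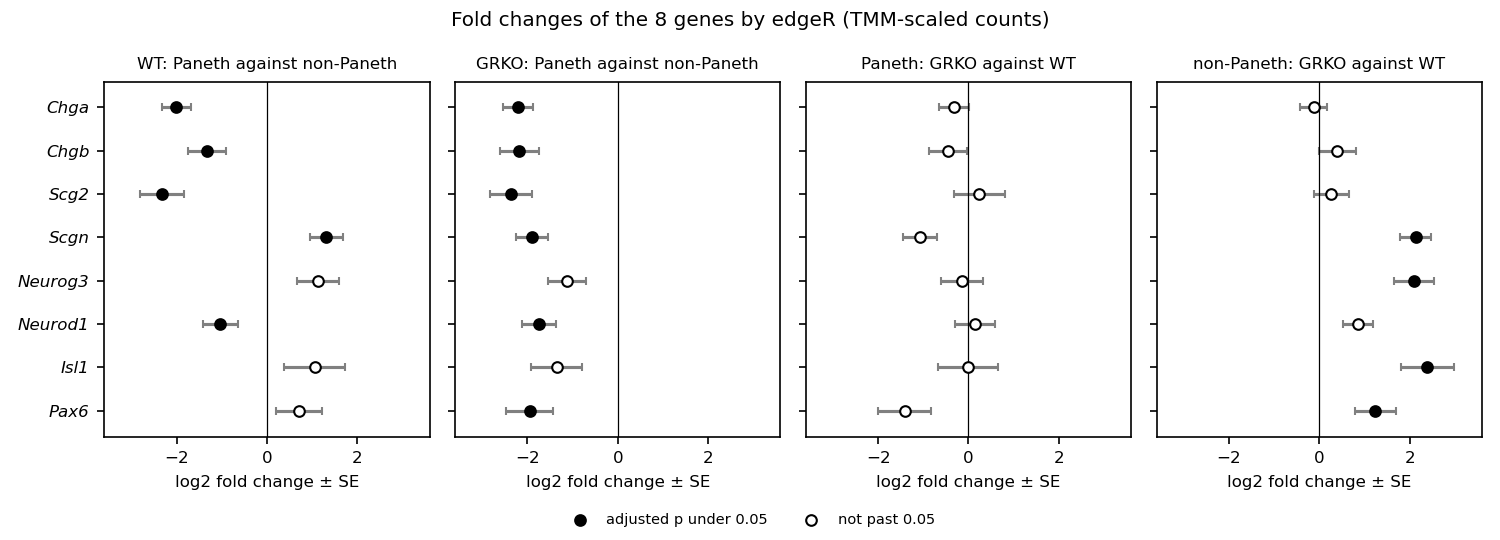
Log2 fold changes (edgeR, TMM-scaled counts) of the 8 genes in 4 comparisons, with bars of 1 SE and filled points for an adjusted p under 0.05. The granins and Neurod1 lie left of 0 in both comparisons of PC with nonPC, and Scgn, Neurog3, Isl1 and Pax6 lie right of 0 in the comparison of GRKO with WT nonPC.

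The comparison of GRKO with WT addressed the effect of losing the glucocorticoid receptor. In nonPC, 4 of the 8 genes rose in GRKO and none fell, against 37.3% of all genes called, 17.5% called higher and 19.8% called lower. Isl1 rose 5.25-fold (log2 2.39 ± 0.58 SE, adjusted p = 0.00483), Scgn 4.38-fold (log2 2.13 ± 0.34 SE, adjusted p = 0.000255) and Neurog3 4.29-fold (log2 2.10 ± 0.44 SE, adjusted p = 0.00196). Pax6 rose 2.37-fold (log2 1.24 ± 0.45 SE, adjusted p = 0.0422). For each of these genes all 3 GRKO libraries were above all 3 WT libraries, and the same held for Neurod1, which did not pass the threshold (log2 0.85 ± 0.33 SE, adjusted p = 0.0536). How many of all genes separated in this way was not counted. By edgeR, 6073 of all 13057 genes had an unadjusted p under 0.05 here, so such separation adds little to the calls. The 3 granins had log2 fold changes of -0.12 ± 0.30 for Chga (adjusted p = 0.783), 0.40 ± 0.41 for Chgb (0.485) and 0.27 ± 0.38 for Scg2 (0.614), and their groups overlapped. The median was 1.05 over the 8 genes and 0.02 over all genes. Scaling by library totals only moved the median of all genes to 0.31, turned the sign of Chga (log2 0.17) and brought Neurod1 past the threshold (log2 1.14, adjusted p = 0.0121). The calls of Scgn, Neurog3 and Isl1 were kept in all 15 alternatives run, with log2 fold changes from 1.81 to 2.42, 1.90 to 2.39 and 1.85 to 3.02 and adjusted p of at most 0.00301, 0.0151 and 0.026. The call of Pax6 was lost without WT nonPC replicate 1 (adjusted p = 0.0688), 2 (0.107) or 3 (0.168), and without GRKO nonPC replicate 1 (0.0617) or 2 (log2 0.69, 0.313).

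In PC, none of the 8 genes passed the threshold between GRKO and WT, against 3.22% of all genes (1.7% higher and 1.52% lower), and DESeq2 also called none of them. The count over all genes was 420 with edgeR, 1464 with DESeq2, 977 with the replicate block and 1780 without a filter on low counts. It was 2 with library totals only, and 0 both with only the groups compared and at a false discovery rate of 1%. With libraries left out it was 1, 86 and 615 without WT PC replicates 1, 2 and 3. Without GRKO PC replicates 1, 2 and 3 it was 1619, 0 and 41. An unadjusted p under 0.05 was found by edgeR for 2 of the 8 genes, and for 3492 of all 13057 genes, a like share. These were Scgn, with a log2 fold change of -1.08 ± 0.38 (SE, adjusted p = 0.0962), and Pax6, with -1.41 ± 0.58 (adjusted p = 0.14). For both, the GRKO libraries lay below the WT libraries without overlap, and the share of all genes without overlap was not counted. The other 6 genes had log2 fold changes between -0.46 for Chgb and 0.24 for Scg2. The counts of Isl1, Neurod1, Pax6 and Scg2 in the 6 PC libraries were between 3 and 18. Their SE were 0.67, 0.44, 0.58 and 0.57 on the log2 scale. At this depth even the difference of Pax6 (log2 -1.41) did not pass, so the lack of calls does not exclude changes of that size.

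The 2 genotype effects were compared directly by an interaction term, which is the log2 fold change of GRKO against WT in PC minus that in nonPC. It was negative for Scgn (-3.21 ± 0.51 SE, adjusted p = 0.00102), Pax6 (-2.66 ± 0.74, adjusted p = 0.0215) and Neurog3 (-2.25 ± 0.64, adjusted p = 0.0248). So 3 of the 8 genes passed, all as lower, against 18.7% of all genes called and 7.27% called lower. Isl1 was at -2.40 ± 0.88 (adjusted p = 0.0703), and the other 4 genes were between -0.85 and -0.03. The call of Scgn was kept in all 20 alternatives (adjusted p at most 0.00428). The call of Neurog3 was lost without WT PC replicate 1 (adjusted p = 0.0629), WT nonPC replicate 2 (0.0652) or 3 (0.0596), and GRKO nonPC replicate 2 (0.0547) or 3 (0.0599). That of Pax6 was lost without WT PC replicate 2 (adjusted p = 0.0542), GRKO PC replicate 3 (0.0537) or GRKO nonPC replicate 2 (0.065), and without GRKO PC replicate 3 Isl1 passed (log2 -3.32, adjusted p = 0.0248).

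Because each gene can also be set against Chga within the same library, the counts per 1000 Chga counts were computed, a scale that needs no normalization between libraries. It was chosen after the values were seen and is given as a description. The ratios depend on Chga as the denominator, which itself differed against Chgb between the nonPC groups. Its mean per 1000 Chgb counts was 542 in WT nonPC and 366 in GRKO nonPC. Ratios of the other genes to Chgb were not computed. Neurog3 stood at 10.9, 13.8 and 22.1 per 1000 Chga counts in WT nonPC and at 62.5, 56.9 and 74.7 in GRKO nonPC. In WT PC it stood at 133, 104 and 121, and in GRKO PC at 144, 36.6 and 234. The 3 GRKO nonPC libraries thus lay between the WT nonPC and the WT PC libraries. The same order of group means was found for Isl1, at 4.18 ± 3.16 (SD, n = 3) in WT nonPC, 24.5 ± 2.09 in GRKO nonPC and 37.5 ± 19.2 in WT PC. Scgn was at 11.1 ± 5.15, 44.8 ± 6.88 and 96.1 ± 25.7 in these groups, and Pax6 at 7.37 ± 1.54, 17.4 ± 6.41 and 46.1 ± 23.0. Neurod1 was at 18.7 ± 3.6 in WT nonPC, 34.4 ± 2.58 in GRKO nonPC and 33.97 ± 2.35 in WT PC. Scg2, another granule protein, was at 51.2 ± 9.75 in WT nonPC, 70.0 ± 5.08 in GRKO nonPC and 44.0 ± 20.7 in WT PC. In GRKO PC the means were 43.6 ± 33.8 for Isl1, 57.0 ± 24.7 for Scgn, 20.4 ± 7.65 for Pax6, 48.9 ± 18.8 for Neurod1 and 65.5 ± 37.1 for Scg2.

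**Figure D3:**
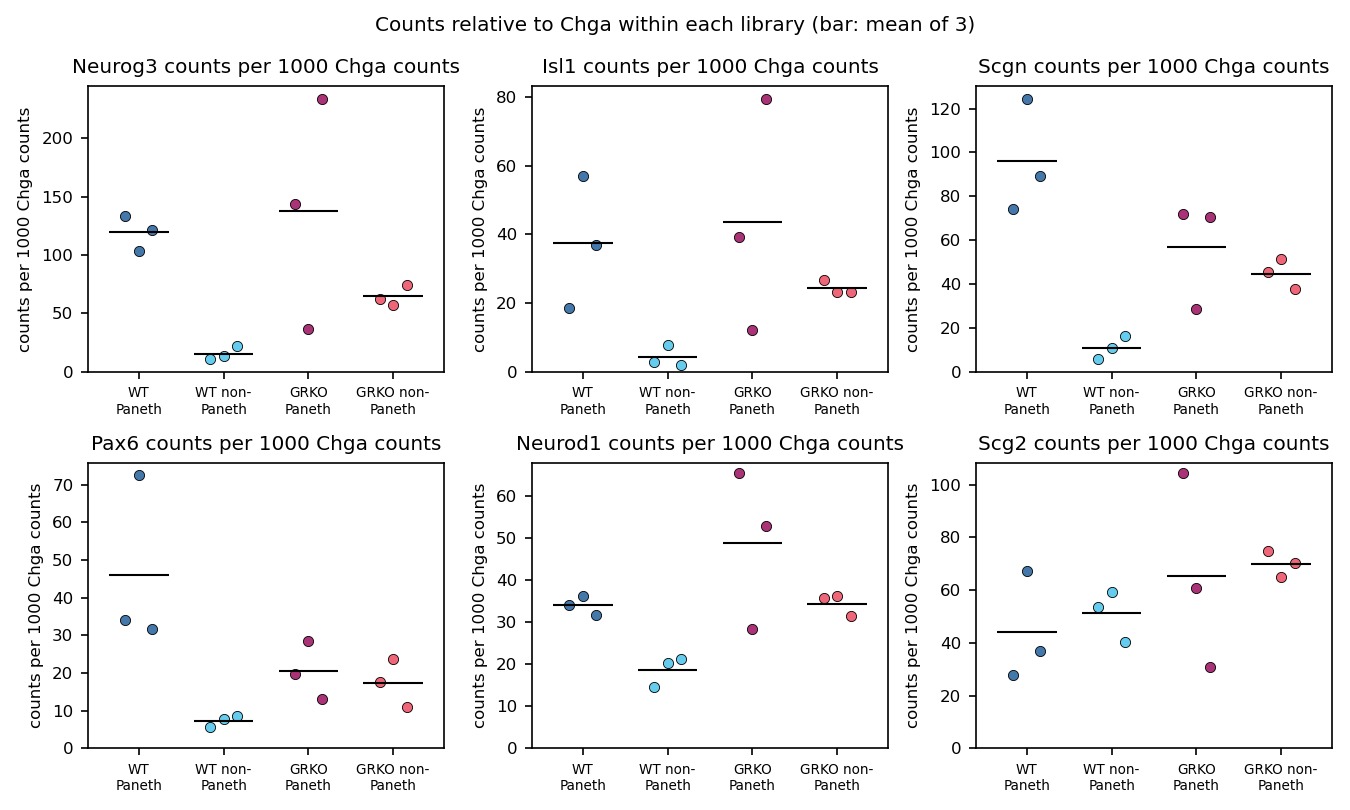
Counts of 6 genes per 1000 Chga counts of the same library (linear axes from 0), with 1 point per library and a bar for the mean of 3. For each of the 6 genes the 3 GRKO nonPC libraries lie above the 3 WT nonPC libraries, and the GRKO PC libraries spread widely for Neurog3 and Isl1. The ratios depend on the choice of Chga as the denominator. Chga itself stood at a mean of 542 per 1000 Chgb counts in WT nonPC and 366 in GRKO nonPC. This shift makes each ratio to Chga rise more in GRKO nonPC than a ratio to Chgb would. Whether the 6 separations hold against Chgb was not tested, and the share of all genes that separate in this way was not counted.

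The balance of the 2 chromogranins differed between the nonPC groups as well. Chga per 1000 Chgb counts was 496, 549 and 582 in WT nonPC and 358, 372 and 369 in GRKO nonPC, without overlap. In PC it was 297, 292 and 455 in WT and 354, 449 and 304 in GRKO, with overlap. Over the 12 libraries, log2 CPM of Chga and Chgb had a Pearson r of 0.95, and r was 0.91 for deviations from the group means. For Neurog3 and Scgn these were 0.86 and 0.71. Chga and Neurog3 had an r of 0.15 over the 12 libraries. These values describe 12 libraries that share groups, depth and scaling, and no test was made on them.

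Levels of different genes were compared per length, as TPM (counts per base of transcript, scaled to 1000000 over all genes) computed with the length of the canonical transcript. TPM does not allow for the large share of Lyz1 and the alpha defensin genes in PC. It is used to rank genes within a group, and TPM of PC and nonPC should not be set against each other. In WT nonPC, Chgb (140 ± 76.6 TPM, SD, n = 3) and Chga (137 ± 64.7) led and overlapped, followed by Scg2 (5.64 ± 3.10), Neurog3 (2.10 ± 0.325), Scgn (1.77 ± 0.102), Neurod1 (1.73 ± 0.502), Isl1 (0.446 ± 0.329) and Pax6 (0.317 ± 0.0849). In this order only Chga and Scg2, and Neurod1 and Isl1, were neighbours whose libraries did not overlap. In GRKO nonPC, Chgb (245 ± 42.8 TPM) and Chga (168 ± 32.4) led without overlap. Neurog3 (11.9 ± 2.52) and Scgn (10.3 ± 3.05) came next and overlapped, and Scgn overlapped Scg2 (9.03 ± 1.14). Below them lay Neurod1 (4.12 ± 0.887) and Isl1 (3.14 ± 0.404), which overlapped, and Pax6 (0.996 ± 0.507). In both PC groups Chgb and Chga also led, with 13.9 ± 5.67 and 8.54 ± 2.31 TPM in WT and 10.8 ± 3.46 and 7.30 ± 1.90 TPM in GRKO, followed by Neurog3 with 1.14 ± 0.443 and 1.09 ± 0.924 TPM. In both PC groups Chgb overlapped Chga, and Neurog3 overlapped Scgn (1.07 ± 0.116 TPM in WT and 0.542 ± 0.234 in GRKO). With all exonic bases of a gene as its length, Chga of WT nonPC was at 66.5 ± 31.4 TPM and Chgb at 201 ± 111 TPM, where the length of Chga is 6514 bases in place of 1951.

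Of 17 other transcription factor genes of the enteroendocrine lineage, 15 were tested, and 11 of them rose in GRKO nonPC and none fell, beside 17.5% of all genes called higher and 19.8% called lower. Among them were St18 (log2 2.58), Nkx2-2 (1.56), Insm1 (1.53), an early factor of endocrine differentiation, and Rfx6 (1.28). The median was 1.25 for this list, and 7 genes passed without WT nonPC replicate 3, 6 without GRKO nonPC replicate 2 and 7 without GRKO nonPC replicate 3. Of 15 tested genes of the secretory granule, 1 rose, Cpe (log2 0.89), the carboxypeptidase that trims prohormones, and none fell, a lower share than the 17.5% of all genes, with a median of 0.61. Of 11 tested genes for hormones and serotonin synthesis, 3 rose, namely Sst (log2 3.69), Gip (2.52) and Ghrl (2.49), which encode somatostatin, the incretin GIP and ghrelin. Ddc fell by 1.07 on the log2 scale. Of these 4 calls among hormone genes 2 were left without WT nonPC replicate 2, GRKO nonPC replicate 1 or GRKO nonPC replicate 3, and that of Cpe was the only one of the granule genes, with 0 without WT nonPC replicate 2 or GRKO nonPC replicate 1 or 3 and 2 without WT nonPC replicate 1. Between the fractions of WT mice, where 24% of all genes were called higher and 26.7% lower, 7 of the 15 factor genes were higher in PC, led by St18 (log2 2.87), Runx1t1 (2.60), Foxa2 (2.0) and Nkx2-2 (1.86), and Lmx1a was lower (-2.89). Of the hormone genes Sst was higher in WT PC (log2 2.99) and 6 were lower, among them Nts (-4.24), Ddc (-2.14), Pyy (-2.0) and Tph1 (-1.92). Of the granule genes Ptprn2 (log2 2.58) and Slc18a1 (1.84) were higher, and Ptprn (-2.41), Rab3c (-1.78) and Pam (-0.44) were lower, 5 of 15 in all, a lower share than the 50.7% of all genes, and 3 without WT nonPC replicate 2.

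**Figure D4:**
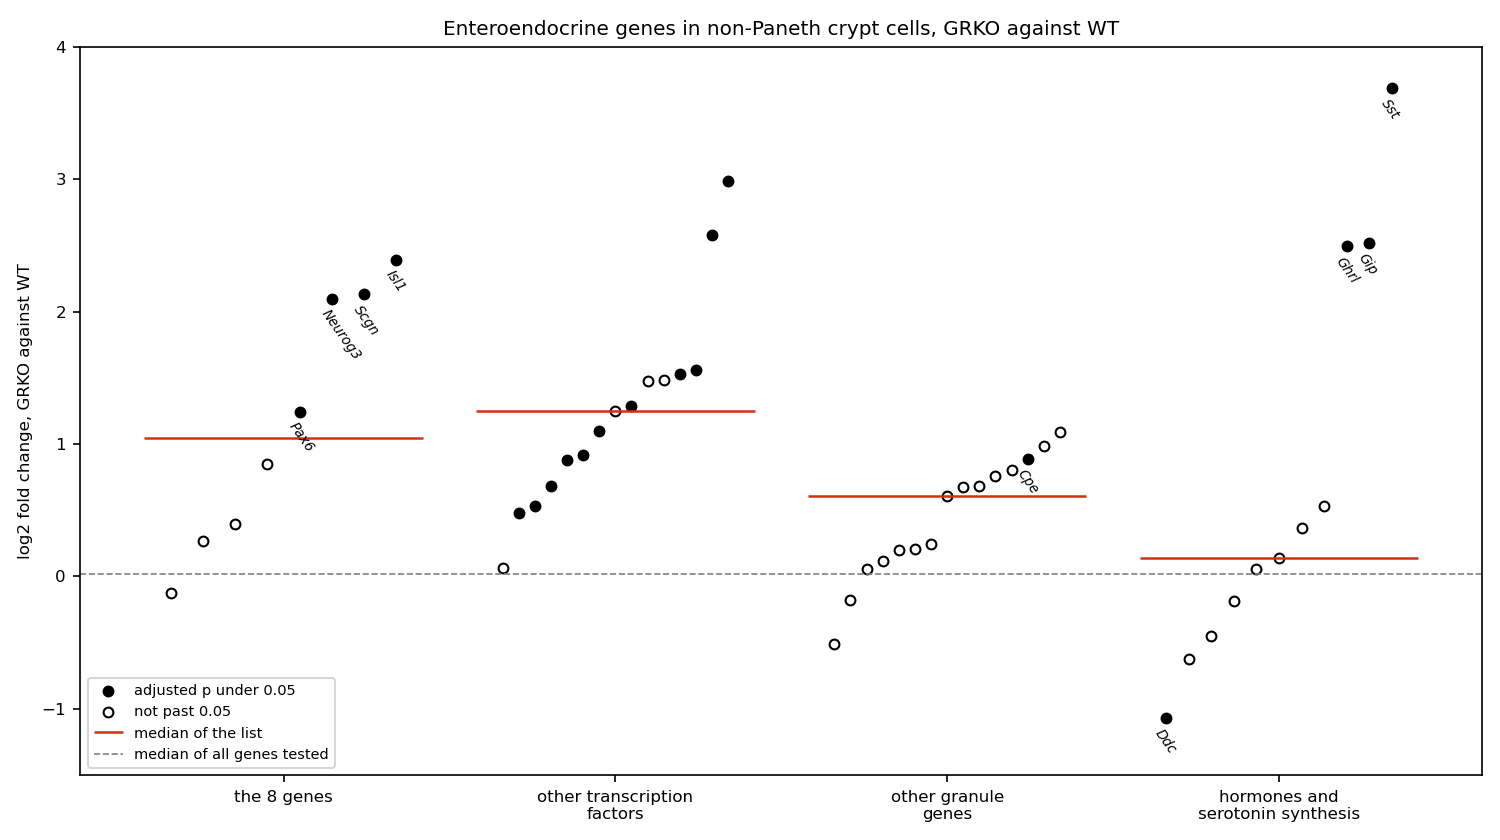
Log2 fold change of GRKO against WT nonPC for the 8 genes and 3 other lists of enteroendocrine genes, sorted within each list, with filled points for an adjusted p under 0.05, red lines for list medians and a dashed line for the median of all genes tested. Of the other factors 11 of 15 rose, whereas 1 of 15 other granule genes and 3 of 11 hormone genes did.

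In GRKO mice the granule genes divided, with 3 of 15 higher in PC than in nonPC and 8 lower, beside 17.9% of all genes called higher and 21.2% called lower. Slc18a1, a vesicular amine transporter, led the higher ones (log2 2.84), before Ptprn2 (2.64), and Rab3c (-2.75), Ptprn (-2.51) and Cadps (-2.46) led the lower ones that passed. Of the 15 factor genes, set against the same shares, 3 were higher and 5 lower, with Lmx1a (-2.21), Fev (-1.68), Rfx6 (-1.66) and Insm1 (-1.27) among the lower ones. Without PC replicate 2 or nonPC replicate 2 of the GRKO mice, 7 granule genes and 5 factor genes passed. All 8 hormone genes that passed were lower, led by Nts (-3.80), Pyy (-3.49), Cck (-2.92), Tac1 (-2.87) and Tph1 (-2.31). Between GRKO and WT PC, 1 gene of the 3 lists passed, the factor gene Mnx1 (log2 -0.77, adjusted p = 0.0448), and no factor gene passed without any 1 of WT PC replicates 1, 2 and 3 or GRKO PC replicates 2 and 3.

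The genes whose pattern over the 12 libraries was most like the mean standardized profile of the 8 genes were Baiap3 (Pearson r = 0.94), Pak3 (0.93), Celf3 (0.90), Gfra3 (0.89) and Cdc20 (0.88). Of the 8 genes Neurod1 had the highest r with that mean profile (0.93) and Neurog3 the lowest (0.68). Each of the 8 genes is itself part of that mean, which raises its r.

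Markers of other cells were also examined in the same libraries. Between GRKO and WT nonPC, 17.5% of all genes were called higher and 19.8% lower. In GRKO nonPC all 7 tested of 8 tuft cell markers rose, with a summed level of 124 to 530 CPM against 5.43 to 13.8 CPM in WT nonPC, where Il25 was at 0 in every library. All 6 proliferation genes rose (1931 to 1978 against 913 to 1060 CPM), as did 3 of 5 stem cell genes (6516 to 8552 against 4140 to 5713 CPM). Of 8 enterocyte markers 3 fell (6630 to 8569 against 27510 to 31660 CPM), as did 2 of 7 goblet cell markers (8885 to 12790 against 8664 to 18070 CPM), and 1 of 8 Paneth markers rose (935 to 1746 against 461 to 1431 CPM). The goblet and Paneth sums overlapped between the genotypes, and those lists were not called far beyond the shares of all genes. The sort marker genes Cd24a and Kit also rose in GRKO nonPC, to 361 to 606 and 22.8 to 62.5 CPM from 139 to 145 and 9.30 to 14.0 CPM. Between the WT fractions all 7 tuft markers tested and all 5 stem cell genes were higher in PC, all 8 enterocyte markers were lower, and of 7 goblet cell markers 2 were higher and 3 lower. Of all genes, 24% were called higher and 26.7% lower in that comparison. The part of these differences in the values of the 8 genes was not tested. Of 6 markers of enteric neurons and glia, cells that can express granins and Isl1 as well, Sox10 was at 0 in every library and the 6 together reached at most 1.02 CPM. That maximum was in WT PC replicate 1. It lay above Scg2 (0.705), Neurod1 (0.862), Isl1 (0.470) and Pax6 (0.862 CPM) of that library, and below the other genes of the 8. The part of such cells in these values was not tested. The labels name no batch, so one that followed the groups cannot be told apart from them.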

How the data were processed

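RNA was sequenced from 12 libraries of sorted crypt cells, 3 per group. The authors trimmed reads with Trimmomatic 0.39, aligned single-end reads of stranded libraries with STAR 2.7.10a to mm39 and counted reads per gene during alignment. The deposited values are raw counts without normalization, and the strand counted is not stated. Genotypes were taken from sample titles, because the genotype field of the records conflicts with them.

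Ensembl identifiers were named through GENCODE vM39 (54749 of 55414), whose release may differ from the one used for counting. The quasi-likelihood test of edgeR 4.0.16 was used under R 4.3.3 (filterByExpr, TMM, glmQLFit with robust estimates, glmQLFTest, 1 mean per group, 12 libraries). Benjamini-Hochberg adjustment ran over all 13057 genes tested with a threshold of 5%. The procedure was tested on simulated data. Changes were set there only in well-counted genes, and all groups shared the same base profile. The simulation therefore does not cover scarce genes or the difference in composition between PC and nonPC. All 8 genes passed the filter on low counts. The genes named from other lists are at most 5 per list and comparison, those with the largest absolute log2 fold change past the threshold, and some genes of these lists are not reported here by name. The members and lists were chosen with earlier results of these data known.

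Within WT mice, deviations from the group means correlated between PC and nonPC libraries of 1 replicate number (0.349, 0.229 and 0.238). For different numbers the correlations were between -0.209 and 0.00725, so the numbers appear to pair the WT fractions. The main fit did not use this pairing. With the replicate block in edgeR, the WT calls of Chga, Scg2, Scgn and Neurod1 were kept (adjusted p = 5.1e-08, 7.78e-05, 0.00849 and 0.0419). The alternatives were DESeq2 1.42.0, RLE factors, library totals only, Lyz1 and Defa genes left out of the scaling, other filters, a replicate block, fits to the compared groups alone, a threshold of 1% and each library left out. Libraries of a group differed by more than sampling noise (chi-square per degree of freedom 13.2 to 50.4). Promoter windows came from RefSeq (GRCm38.p6). Protein sequences were not used here.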

Additional observations from a re-analysis of the deposited data

Results flagged for a closer look

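Of the 8 genes, 3 passed the interaction test of edgeR, all as lower, against 18.7% of all genes called and 7.27% called lower. Of 20 alternatives, the call of Scgn was kept in all 20, that of Neurog3 was lost in 6 and that of Pax6 in 4. The log2 fold change of GRKO against WT in PC minus that in nonPC was -3.21 for Scgn (adjusted p = 0.00102), -2.25 for Neurog3 (adjusted p = 0.0248) and -2.66 for Pax6 (adjusted p = 0.0215). For Scgn the change was -1.08 in PC, with the 3 GRKO libraries below the 3 WT libraries, and 2.13 in nonPC, with the 3 GRKO libraries above. For Pax6 these were -1.41 and 1.24, again without overlap in either fraction, and for Neurog3 they were -0.15, with overlap, and 2.10, without. The share of all genes without overlap was not counted.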

How the results depend on the processing

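Of the values of the 8 genes under the alternatives, 552 kept their direction and their side of the threshold, 35 lost the threshold, 22 passed it newly and 22 changed sign. The number of the 8 genes past the threshold between WT PC and WT nonPC was 5, and it was 3 at a false discovery rate of 1% and 3 to 5 with each library left out. Between GRKO PC and GRKO nonPC it was 6, with 5 to 8 when libraries were left out. Between GRKO and WT it was 4 in nonPC, with 3 to 4, and 0 in PC, with 0 to 0. For the interaction it was 3, and it was 5 without a filter on low counts, 5 with the replicate block, 1 at a false discovery rate of 1% and 1 to 3 with libraries left out. Chgb and Isl1 were the genes that passed with the block, with adjusted p of 0.00575 and 0.0279. The replicate block also brought Neurog3 (adjusted p = 0.00792) and Isl1 (0.024) past the threshold between GRKO PC and GRKO nonPC. Whether the numbers pair those libraries is not settled. Their correlations were 0.0129, 0.262 and 0.465 for the same number, and between -0.381 and 0.205 for different numbers. The block changed no call between the genotypes.

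Sign changes were found for values that no alternative called. With library totals only, Pax6 between WT PC and WT nonPC was at -0.003, Isl1 between GRKO and WT PC at 0.029 and Chga between GRKO and WT nonPC at 0.17. Isl1 between GRKO and WT PC was also at 0.007 without a filter on low counts and at 0.004 with the replicate block. The interaction of Scg2 was 0.034 with DESeq2 and 0.019 with RLE factors. Over the main fit and all alternatives, values between GRKO and WT PC ranged for Isl1 from -0.93 to 0.46 and for Neurog3 from -0.91 to 0.32. For Neurod1 they ranged from -0.013 to 0.41 and for Scg2 from -0.11 to 0.60. Values between GRKO and WT nonPC ranged for Chga from -0.48 to 0.26 and for Scg2 from -0.17 to 0.66. The interaction ranged for Chga from -0.63 to 0.11 and for Scg2 from -0.47 to 0.36.

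The lowest counts in a library were 2 for Isl1, 3 for Pax6, 6 for Neurod1, 7 for Scg2 and Scgn and 9 for Neurog3, and depth limits these genes. The call of Pax6 between GRKO and WT nonPC was also lost with DESeq2 (adjusted p = 0.0844) and RLE factors (0.0525), that of Chgb between WT PC and nonPC with only the groups compared (0.0777), and that of Neurod1 there with DESeq2 (0.0679), no filter (0.0599), 10 counts in every library of a group (0.0647) and only the groups compared (0.0674). Neurod1 between GRKO and WT nonPC passed with library totals only (0.0121) and with only the groups compared (0.0398).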
